A study of Mus musculus with 12 samples.

Results

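The 10 genes described here encode transcription factors of the naive pluripotent state: Nanog, Esrrb, Klf2, Klf4, Klf5, Tfcp2l1, Tbx3, Zfp42, Prdm14 and Nr0b1. They were taken by name from a table of 43346 genes measured by RNA-seq in mouse embryonic stem cells, and all 10 passed the filter on low counts. The cells came from 4 mouse strains with 3 libraries each. B6 is C57BL/6J and D2 is DBA/2J. B6-13D2, or B6.D2-(rs30079041-rs51756099)/Bakr, carries a chromosome 13 segment of D2 on the B6 background. D2-13B6, or D2.B6-(rs29224292-rs13469455)/Bakr in the sample labels, carries the reciprocal B6 segment on the D2 background, although the series text ends that segment at rs51756099. All 4 groups grew in medium with 15% serum, the cytokine LIF, the MEK inhibitor PD0325901 at 1 µM and the GSK3 inhibitor CHIR99021 at 3 µM.

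Each strain is 1 cell line by the protocol, so strain and line cannot be told apart. The libraries are independent cultures by the protocol and technical replicates by their titles, so p-values measure only the spread between these cultures. B6 replicate 3 carries another line name than B6 replicates 1 and 2, and the D2 titles and cell line field name different lines. The molecule field names genomic DNA, against an RNA protocol. The congenic libraries share a prefix in the table, and whatever it records cannot be told apart from congenic against parental. Libraries held 22184196 to 36411799 expected counts, and the members had 520 to 32347 each.

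In the mouse preimplantation epiblast and in embryonic stem cells derived from it, Oct4 (Pou5f1) and Sox2 form the core of pluripotency, and the factors described here hold that core in its naive form. LIF reaches them through STAT3, with Klf4 and Tfcp2l1 among its targets. Inhibition of GSK3 relieves repression of Esrrb, Tfcp2l1 and Klf2 by TCF7L1, while inhibition of MEK blocks the FGF signal that drives cells out of the state. None of the members lies on chromosome 13, so none is itself inside the exchanged segment.

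By group means all members were lowest in D2, although for Klf4 and Tbx3 the difference from at least 1 congenic line was not called. In D2 against B6, 9 of 10 were called lower by edgeR's quasi-likelihood test (adjusted p under 0.05) and none higher. The exception was Zfp42. Across all 17148 tested genes 60% were called, 30.3% as lower and 29.8% as higher. The median log2 fold change of the members was -0.55, against 0.01 for all genes tested. The range ran from -0.13 for Zfp42 to -1.04 for Nr0b1.

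The members went both ways in B6-13D2, the line with the D2 segment on the B6 background. Comparing B6-13D2 with B6, 6 were called higher (Nanog, Esrrb, Klf2, Klf5, Tfcp2l1 and Zfp42) and 3 lower (Klf4, Tbx3 and Nr0b1), while Prdm14 was not called. The background was 58.3% called, with 25.4% higher and 32.9% lower. The B6 segment on the D2 background went with higher levels: in D2-13B6 against D2, 8 members were called higher and none lower, with Klf4 and Tbx3 not called. The background there was 57.3% called, with 27.6% higher and 29.7% lower. The member medians in these comparisons were 0.13 and 0.19, against -0.04 and 0.00 over all genes. Since most genes were called in each comparison, a call on its own sets no member apart. Few changes were large: an absolute log2 value of 1 or more was reached by Nr0b1 alone between the parental strains (11.3% of all genes) and by no member when a congenic line was set against its background strain (14.5% of all genes on B6, 8.96% on D2).

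**Figure D1:**
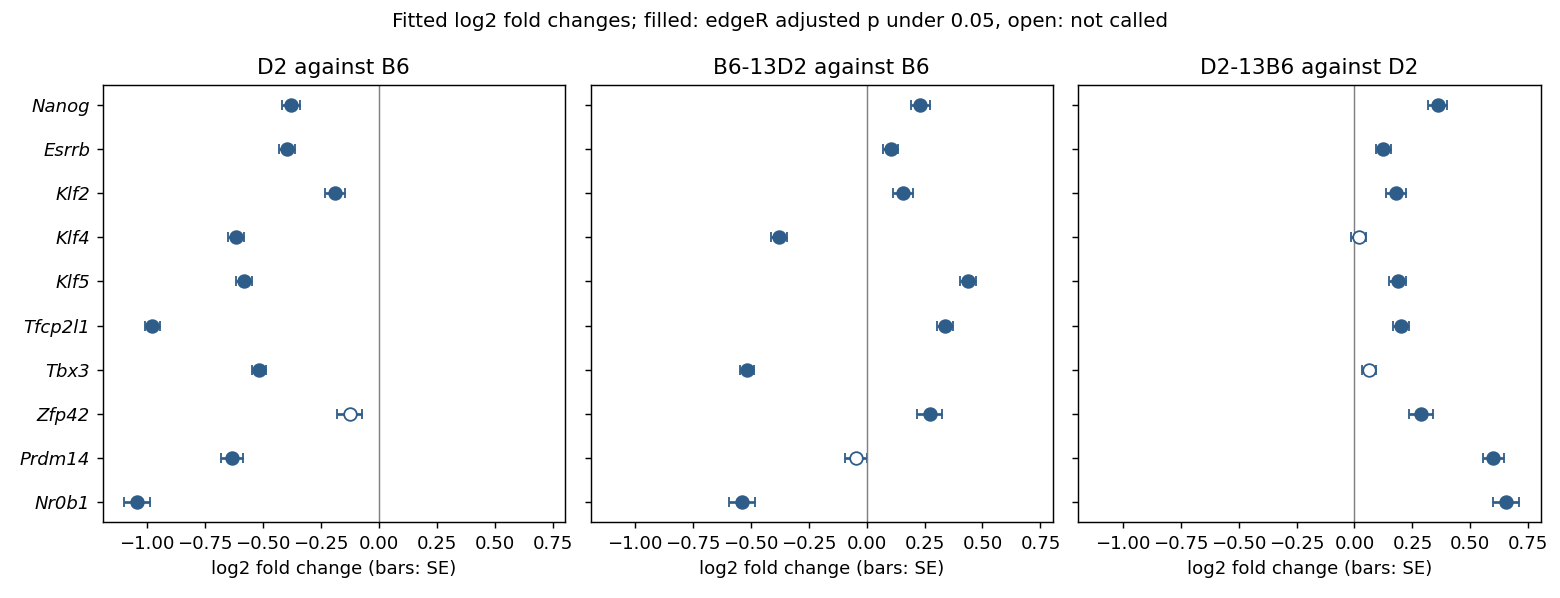
Fitted log2 fold changes of the 10 members (horizontal axis, bars are standard errors) for the parental comparison (left) and both congenic comparisons (middle and right), with filled points for edgeR adjusted p under 0.05. All points lie below 0 in the first panel, fall on both sides of 0 in the second and lie above 0 in the third, where Klf4 and Tbx3 are open.

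The members were sorted by their group means into 3 patterns, a grouping made after the values were seen. It does not follow the full order of means, by which Tbx3 would go with Prdm14 and Nr0b1. Nanog, Esrrb, Klf2, Klf5, Tfcp2l1 and Zfp42 were highest in B6-13D2. Klf4 and Tbx3 were highest in B6 and sat lower in each of the other groups. Prdm14 and Nr0b1 were also highest in B6 by their means, but D2 lay well under all other groups. Levels below are CPM, counts scaled to a common total with edgeR's TMM library sizes. Members are compared with each other in level only as CPM per kb of exon. Sums over lists are plain CPM, without a correction for length.

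**Figure D2:**
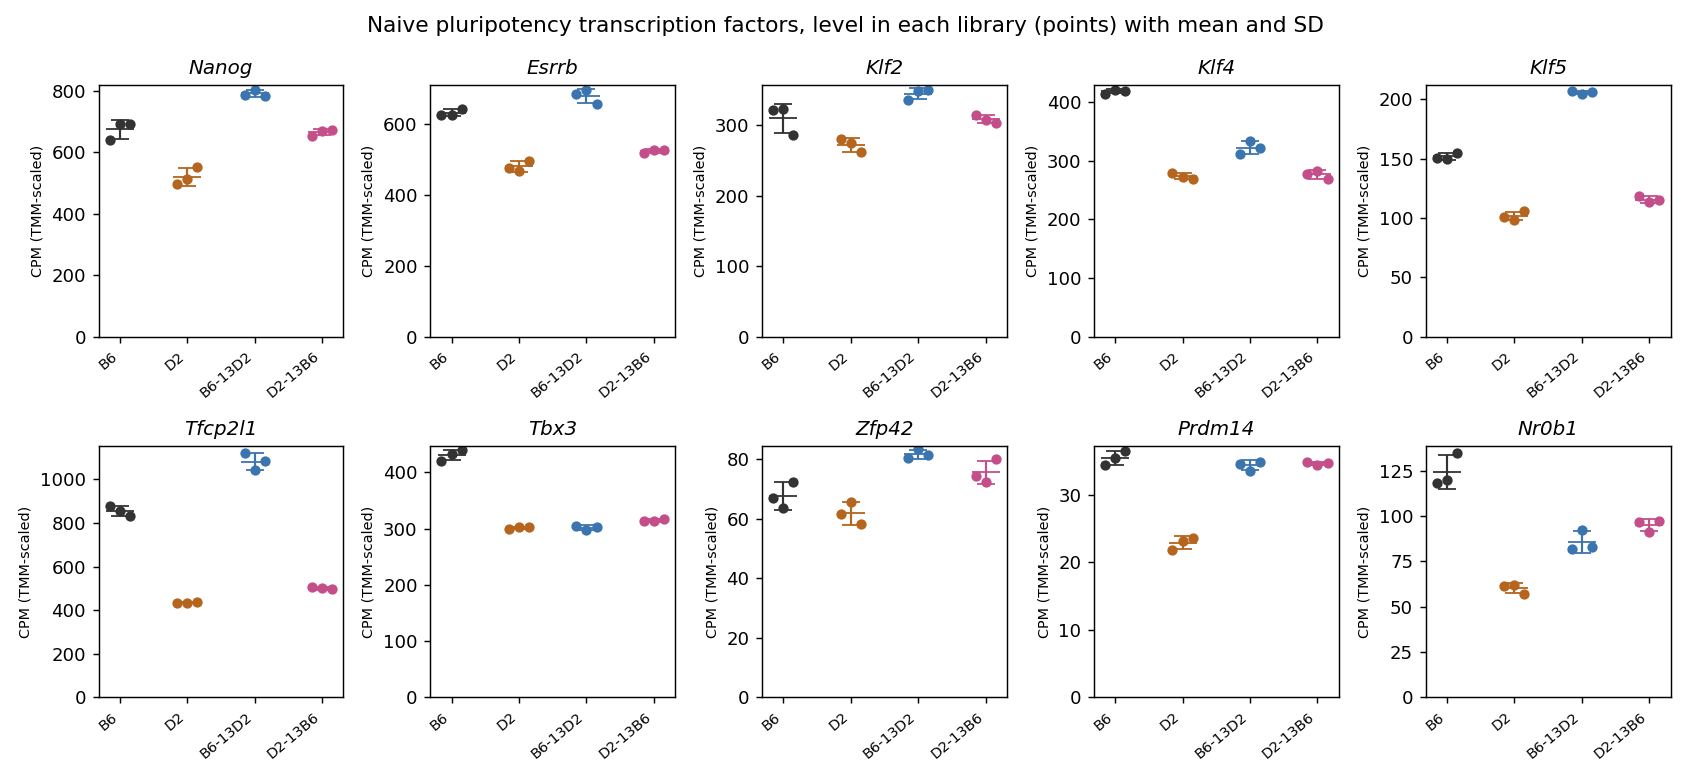
CPM of each member (vertical axis) in each of the 12 libraries, shown as points by strain with the mean and SD of 3 libraries. Tfcp2l1 separates the groups most widely, from 435 in D2 to 1082 in B6-13D2, while Prdm14 is low in D2 alone.

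Nanog, a homeodomain factor that sustains self-renewal when overexpressed, lies at chr6:122707489-122714633 on the plus strand (GRCm38, ENSMUSG00000012396). B6 libraries read 639, 692 and 691 CPM, D2 libraries 495, 511 and 550.3, B6-13D2 libraries 788, 803 and 784, and D2-13B6 libraries 653, 670.3 and 672. The B6-13D2 libraries were above all others and the D2 libraries below all others, while B6 and D2-13B6 overlapped. Nanog fell by 0.38 in D2 against B6 on the log2 scale (SE 0.040, edgeR adjusted p 3.01e-07), rose by 0.23 in B6-13D2 against B6 (SE 0.040, adjusted p 7.71e-05) and rose by 0.36 in D2-13B6 against D2 (SE 0.040, adjusted p 5.4e-07). B6 and D2-13B6 did not differ beyond their spread (log2 -0.02, SE 0.040, adjusted p 0.697). Per kb, Nanog was the highest member in all 4 groups, from 231 CPM per kb in D2 to 353 in B6-13D2.

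Esrrb, an orphan nuclear receptor that can stand in for Nanog and is repressed by TCF7L1, lies at chr12:86361117-86521628 on the plus strand (ENSMUSG00000021255). B6 averaged 631 ± 10.2 CPM, D2 479 ± 14.5, B6-13D2 678 ± 19.6 and D2-13B6 522 ± 5.17 (SD, n = 3). No library of one strain overlapped another strain: B6 spanned 625 to 642, D2 468 to 496, B6-13D2 656 to 694 and D2-13B6 516 to 525. Both groups of the B6 background were above both of the D2 background. Against the strain of their background the congenic lines were higher by 0.10 on the log2 scale (B6-13D2, SE 0.033, edgeR adjusted p 0.0111) and by 0.12 (D2-13B6, SE 0.033, adjusted p 0.0037), each smaller than the fall of 0.40 from B6 to D2.

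Tfcp2l1, a grainyhead-family factor and a LIF and STAT3 target, lies at chr1:118627945-118685168 on the plus strand (ENSMUSG00000026380) and had the widest span of the members, 2.49-fold between the highest and lowest group. Libraries of B6 read 880.3, 855 and 832 CPM, those of D2 433, 434 and 437, those of B6-13D2 1119.8, 1042 and 1084, and those of D2-13B6 505, 499.6 and 495. The 4 groups did not overlap, and both D2-background groups lay far below both B6-background groups. Tfcp2l1 fell by 0.98 in D2 against B6 (log2, SE 0.034, edgeR adjusted p 1.01e-13). It rose by 0.34 in B6-13D2 against B6 (SE 0.033, adjusted p 8.31e-08) and by 0.20 in D2-13B6 against D2 (SE 0.033, adjusted p 5.18e-05).

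Klf2, Klf4 and Klf5 are Krüppel-like zinc finger factors that share targets in embryonic stem cells and can in part replace each other, yet they did not share a pattern here. Per kb, Klf2 and Klf4 were of like order in B6, at 168 and 137 CPM per kb, and Klf5 was lower at 29.2.

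Klf2, at chr8:72319033-72321656 on the plus strand (ENSMUSG00000055148), varied least of all members, 1.27-fold between the highest and lowest group. B6 read 321, 322 and 286 CPM, D2 280.3, 274 and 262, B6-13D2 336, 349 and 349.7, and D2-13B6 315, 307 and 303. B6 replicate 3, the library with the other line name, was the lowest of its group. D2 against B6 was -0.19 (log2, SE 0.043, edgeR adjusted p 0.00122), and -0.24 without that library. B6-13D2 against B6 was 0.16 (SE 0.043, adjusted p 0.00485), and 0.10 without it, which is still past the threshold (adjusted p 0.0273).

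Klf4, at chr4:55527143-55532466 on the minus strand (ENSMUSG00000003032), is a LIF and STAT3 target and a reprogramming factor. It stood at 414, 421 and 419 CPM in B6, against 311, 333 and 322 in B6-13D2, 279, 272 and 269 in D2, and 278, 283 and 268 in D2-13B6. B6 was above every other library, B6-13D2 lay between, and the D2-background groups overlapped. Klf4 fell by 0.61 in D2 against B6 (log2, SE 0.034, edgeR adjusted p 7.61e-11) and by 0.38 in B6-13D2 against B6 (SE 0.034, adjusted p 3.01e-08). In D2-13B6 against D2 its value was 0.02 (SE 0.034, adjusted p 0.685).

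Klf5, at chr14:99298691-99315036 on the plus strand (ENSMUSG00000005148), was at 151, 149.8 and 155 CPM for B6, 101, 98.4 and 106 for D2, 206, 205 and 206 for B6-13D2, and 118, 113 and 115 for D2-13B6. The groups did not overlap, and B6-13D2 was 2.02-fold above D2 by their means. The rise in B6-13D2 against B6, 0.44 on the log2 scale (SE 0.034, edgeR adjusted p 4.22e-09), was the largest of the members in that comparison. In the same comparison Klf4 fell, so these paralogs moved in opposite directions. D2-13B6 exceeded D2 by 0.19 (SE 0.035, adjusted p 0.000196).

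Tbx3, a T-box factor linked to PI3K signalling downstream of LIF, lies at chr5:119670669-119684724 on the plus strand (ENSMUSG00000018604). It stood at 421, 433 and 439 CPM in B6, and in the other 9 libraries at 297 to 318. B6 alone was high. The fall was 0.52 in D2 against B6 (log2, SE 0.030, edgeR adjusted p 1.3e-10) and 0.51 in B6-13D2 against B6 (SE 0.030, adjusted p 7.55e-11), nearly the same size. B6-13D2 and D2 differed by 0.00 (SE 0.030, adjusted p 0.976), and D2-13B6 against D2 was 0.06 (SE 0.030, adjusted p 0.0878). An antisense gene, Tbx3os1, overlaps it and had at most 9 counts in a library. The sources used here do not say if strand entered the counting.

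Zfp42, which encodes the zinc finger protein Rex1 and is widely used as a reporter of the naive state, lies at chr8:43295063-43306980 on the minus strand (ENSMUSG00000051176). B6 read 66.8, 63.4 and 72.4 CPM, D2 61.4, 65.6 and 58.0, B6-13D2 80.2, 83.2 and 81.3, and D2-13B6 74.4, 72.4 and 79.8. Both congenic lines lay above their background strain, and B6 and D2 overlapped. B6-13D2 exceeded B6 by 0.27 (log2, SE 0.053, edgeR adjusted p 0.000271) and D2-13B6 exceeded D2 by 0.29 (SE 0.053, adjusted p 0.000162). D2 against B6 was -0.13 (SE 0.055, adjusted p 0.0562); it passed the threshold with no filter (-0.13, adjusted p 0.0276), without B6 replicate 2 (-0.17, adjusted p 0.0195) or without D2 replicate 2 (-0.18, adjusted p 0.0193).

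Prdm14, a PR-domain zinc finger repressor that dampens FGF signalling and DNA methylation, lies at chr1:13113457-13127163 on the minus strand (ENSMUSG00000042414). Its libraries read 34.4, 35.5 and 36.6 CPM in B6, 34.7, 33.6 and 34.9 in B6-13D2, and 35.0, 34.5 and 34.7 in D2-13B6, against 21.8, 23.2 and 23.7 in D2. D2 was the 1 strain that stood apart. Prdm14 fell by 0.63 in D2 against B6 (log2, SE 0.048, edgeR adjusted p 4.35e-09) and rose by 0.60 in D2-13B6 against D2 (SE 0.047, adjusted p 4.91e-09). The 3 comparisons among the other strains had adjusted p of 0.409 (B6-13D2 against B6), 0.558 (D2-13B6 against B6) and 0.805 (B6-13D2 against D2-13B6), with log2 values of -0.05 (SE 0.046), -0.03 (SE 0.045) and -0.01 (SE 0.044). Per kb it was the lowest member in all groups, 8.93 CPM per kb in D2 and 13.4 to 13.8 in the others.

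Nr0b1, which encodes the orphan nuclear receptor Dax1, a partner of Oct4, lies at chrX:86191764-86195947 on the plus strand (ENSMUSG00000025056). B6 libraries stood at 118, 119.7 and 135 CPM, D2 at 61.4, 62.3 and 57.1, B6-13D2 at 81.7, 92.6 and 82.8, and D2-13B6 at 96.7, 91.4 and 97.2. B6 was highest and D2 lowest, and the congenic lines lay between them with overlapping libraries. Nr0b1 fell by 1.04 in D2 against B6 (log2, SE 0.057, edgeR adjusted p 6.27e-11), the largest change of the members there. The B6 library with the other line name was its highest, and the value without it was -0.98.

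Nr0b1 was the 1 member of 10 called in both congenic comparisons with the same sign for the segment's allele. Libraries with the D2 segment were lower than those with the B6 segment by 0.54 on the B6 background (log2, SE 0.056, edgeR adjusted p 1.84e-07). On the D2 background the D2 segment gave -0.65 (SE 0.057, adjusted p 2.17e-08). The difference between these effects was 0.12 (SE 0.080, edgeR adjusted p 0.204). It was called with DESeq2 (adjusted p 0.0498) and by edgeR with library totals (adjusted p 0.00473). By edgeR it was also called with no filter (adjusted p 0.0378) and without B6 replicate 3 (adjusted p 0.0394). Among all tested genes, 7.33% were called in both congenic comparisons with the same sign for the segment. Nr0b1 met this in each of 19 alternative fits, with values from -0.59 to -0.46 on the B6 background and, for D2-13B6 against D2, from 0.62 to 0.72. With library totals alone as the scaling, Klf4 and Tbx3 met it too, since D2-13B6 against D2 was then called for them at 0.08 and 0.13. Each congenic strain is 1 line, so the segment and the line cannot be told apart. The median of all tested X-linked genes differed from that of autosomal genes by -0.08 in B6-13D2 against B6 and by 0.05 in D2-13B6 against D2.

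Nanog, Esrrb, Klf2, Klf5, Tfcp2l1 and Zfp42 were called higher in each congenic line than in its parental strain, whichever segment it carried. Of all tested genes, 12.4% were called higher in both. Over both congenic lines against both parental strains, 7 members were called higher (these 6 and Prdm14) and Klf4 and Tbx3 lower, with a background of 64.5% called, 31.1% higher and 33.4% lower; no member reached an absolute log2 value of 1 (10.1% of all genes). Across the strains that share a segment, B6-13D2 exceeded D2 for 9 members (background 74.6% called, 36.7% higher and 38% lower). Tfcp2l1 at 1.31 and Klf5 at 1.02 were the members at a log2 value of 1 or more there (28.1% of all genes). D2-13B6 was below B6 for 6 members and above it for Zfp42 (background 59% called, 34.6% lower and 24.5% higher), none by an absolute log2 value of 1 (11.6% of all genes). That call for Zfp42 (log2 0.16, SE 0.053, edgeR adjusted p 0.0149) was lost without B6 replicate 1 or 2, or D2-13B6 replicate 3, with adjusted p of 0.0532, 0.106 and 0.0927. Between the congenic lines, 6 members were called higher in B6-13D2 and Nr0b1 lower (background 70.2% called, 31.8% higher and 38.4% lower), with Tfcp2l1 past a log2 value of 1 (22.1% of all genes). That call for Nr0b1 (log2 -0.15, SE 0.055, edgeR adjusted p 0.0233) was lost without either B6-13D2 replicate 1 or 3, or D2-13B6 replicate 1 or 3, with adjusted p of 0.126, 0.113, 0.077 and 0.0835. Zfp42, not called there (log2 0.11, SE 0.052, adjusted p 0.0624), was called higher in 9 of 19 alternative fits, and Tbx3 (log2 -0.06, SE 0.030, adjusted p 0.0794) was called lower with library totals alone (-0.09, adjusted p 0.0108).

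The summed level of transcripts typical of fibroblasts was high, and between some strains it ran opposite to that of the members. The 7 markers Col1a1, Col1a2, Col3a1, Thy1, Postn, Dcn and Twist1 summed to 9383 to 10189 CPM for B6, 14168 to 16958 for D2, 3092 to 3179 for B6-13D2 and 7727 to 8055 for D2-13B6. None was at 0 in any group, although Dcn was below 1 CPM in B6-13D2. All 7 were called higher in D2 against B6 (median log2 0.71), all 7 lower in B6-13D2 against B6 (median -1.54) and 6 of 7 lower in D2-13B6 against D2 (median -0.92). Klf4, Tbx3 and Nr0b1 fell along with the markers when B6-13D2 was compared with B6. The 10 members summed to 3671 to 3716 CPM for B6, 2507 to 2560.2 for D2, 3903 to 3946 for B6-13D2 and 2906 to 2910.1 for D2-13B6. The order of strains for the members was thus the reverse of that for the markers in D2 and B6-13D2. It was not between B6 and D2-13B6, where both sums were lower in D2-13B6. Single markers split there, with 3 of 7 called higher in D2-13B6 and 4 lower (24.5% and 34.6% of all genes). Col1a1 and Col1a2, both lower, made up most of the marker sums. The labels mention no feeder cells. In these bulk libraries fewer cells of a type and less RNA per cell cannot be told apart, and the part of these transcripts in the members' differences was not tested.

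**Figure D3:**
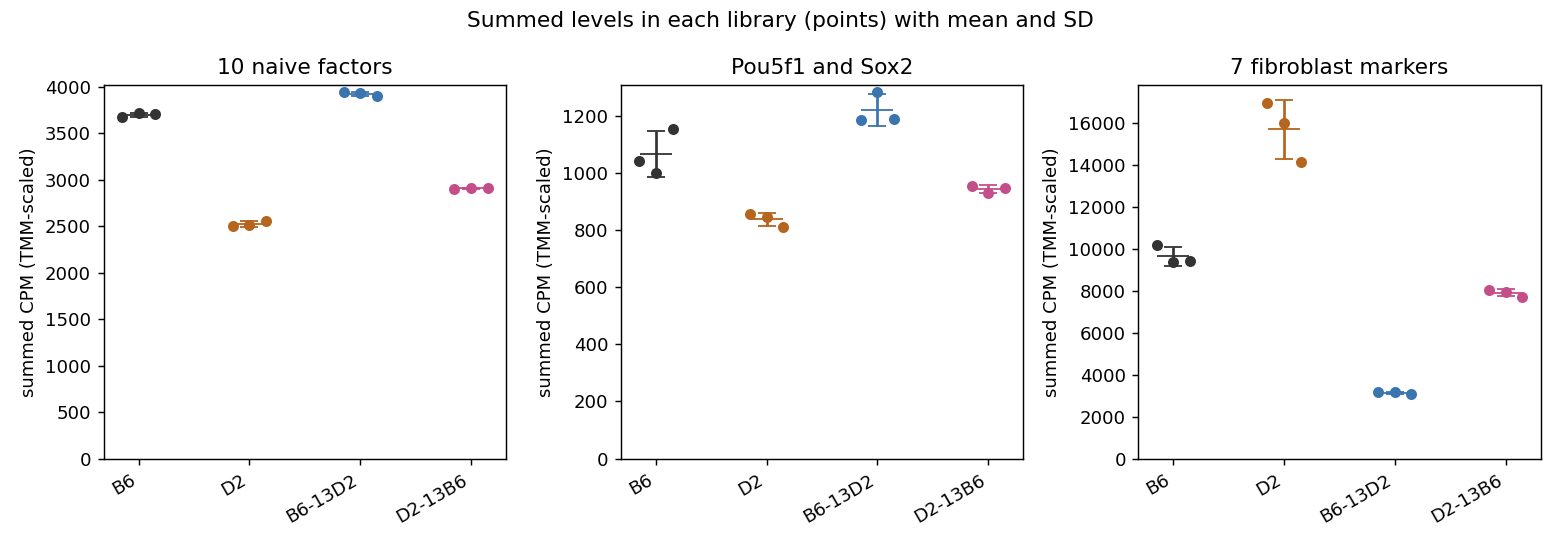
Summed CPM in each library (points, with mean and SD of 3) for the 10 members, for Pou5f1 with Sox2, and for 7 fibroblast markers, each panel starting at 0. The members run from 2507 in a D2 library to 3946 in a B6-13D2 library, while the fibroblast markers are highest in D2 and lowest in B6-13D2.

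In sum, markers of other lineages were low beside the members. Summed levels were 2.42 to 6.01 CPM for 5 mesoderm markers, 19.8 to 34.9 for 6 trophoblast markers, 33.8 to 54.1 for 5 neuroectoderm markers and 85.0 to 108 for 8 primitive endoderm markers over all groups. The mean of each of these sums was higher in D2 than in B6, and their part in the members' differences was not tested. In B6 most of the primitive endoderm and neuroectoderm sums came from a single marker each. Single markers went both ways in D2 against B6. Of primitive endoderm markers 4 were called higher and 1 lower, and of trophoblast markers 2 higher and 1 lower. Mesoderm had 1 higher, neuroectoderm 2 higher, and neither had any lower (29.8% higher and 30.3% lower over all genes).

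The defining pluripotency factors were abundant in every strain. Pou5f1 averaged 692 ± 54.5 CPM for B6, 532 ± 11.6 for D2, 767 ± 26.9 for B6-13D2 and 619 ± 6.63 for D2-13B6 (SD, n = 3). Sox2 averaged 375 ± 25.5, 306 ± 12.1, 454 ± 29.6 and 326 ± 13.3 in the same order. By their means both followed the order of Nanog and Esrrb, although Sox2 in D2-13B6 against D2 was not called (log2 0.09, SE 0.052, edgeR adjusted p 0.148). Pou5f1 was lower in D2 than in B6 by 0.38 (log2, SE 0.045, adjusted p 1.14e-06).

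The members were therefore also set against the geometric mean of Pou5f1 and Sox2 in the same library, a description chosen after the values were seen. No test is given for it. On this log2 scale, with the B6 mean at 0, Nanog, Esrrb and Klf2 overlapped between D2 and B6, at -0.04, -0.06 and 0.15. Tfcp2l1 was lower for D2 (-0.64 ± 0.051) and for D2-13B6 (-0.60 ± 0.021), and Nr0b1 for D2 (-0.71 ± 0.031) and B6-13D2 (-0.75 ± 0.029, SD, n = 3). D2-13B6 was at -0.21 ± 0.034 for Nr0b1, so the strains with the D2 segment lay below those with the B6 segment. Nr0b1 libraries spanned -0.04 to 0.03 for B6, -0.74 to -0.68 for D2, -0.77 to -0.72 for B6-13D2 and -0.24 to -0.17 for D2-13B6.

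On the same scale Klf4 stood at -0.28 for D2, -0.59 for B6-13D2 and -0.42 for D2-13B6, and Tbx3 at -0.18, -0.73 and -0.28. Prdm14 stood at -0.30, -0.26 and 0.15, and Zfp42 at 0.20, 0.06 and 0.34. In D2 against B6, 6 members were lower and 1 higher without overlap, and 3 overlapped, where 66.1% of all genes did not overlap. In B6-13D2 against B6, 4 were lower, 1 was higher and 5 overlapped (60.8% of all genes without overlap). In D2-13B6 against D2, 4 were higher, 2 lower and 4 overlapped (64% without overlap).

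**Figure D4:**
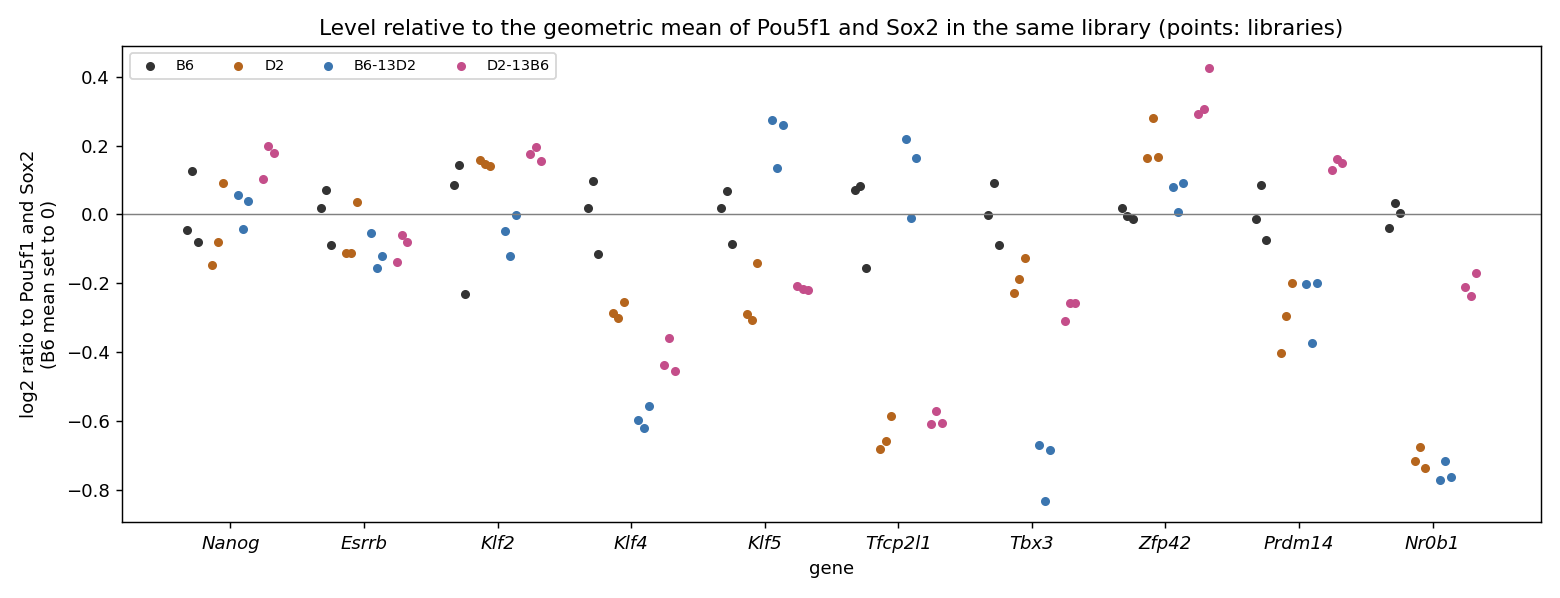
log2 level of each member relative to the geometric mean of Pou5f1 and Sox2 in the same library, with the B6 mean set to 0, for 12 libraries by strain (points). Nr0b1 lies at -0.71 in D2 and -0.75 in B6-13D2, below its level of -0.21 in D2-13B6.

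The other core and naive transcription factors were Pou5f1, Sox2, Sall4, Nr5a2, Gbx2, Tfap2c, Stat3 and Sp5. They went in both directions between the parental strains and in both congenic comparisons. In D2-13B6 against B6 all 8 were called lower (34.6% of all genes). Of these 8, D2 had 5 lower and 2 higher than B6 by the test, B6-13D2 had 5 higher and 2 lower than B6, and D2-13B6 had 2 higher and 5 lower than D2. Tfap2c, an AP-2 factor that opens naive enhancers, fell by 1.42 in D2-13B6 against D2 (log2, SE 0.059, edgeR adjusted p 1.55e-12), where no member fell. Sall4, a zinc finger partner of Oct4, was lower by 0.55 in D2 (SE 0.035, adjusted p 3.63e-10) and by 0.40 in B6-13D2 (SE 0.035, adjusted p 2.01e-08), both against B6, and higher by 0.22 in D2-13B6 against D2 (SE 0.035, adjusted p 3.05e-05), the same signs as Nr0b1.

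Of 8 other genes tied to the naive state that are not transcription factors, Dppa3, Dppa5a, Tdh, Fbxo15, Tcl1, Pecam1, Fgf4 and Tet2, all were called lower in D2 than in B6. B6-13D2 had 4 higher and 3 lower than B6, and D2-13B6 had 6 higher and 1 lower than D2. Dppa3 (Stella), a maternal factor that guards against DNA methylation, fell by 1.94 in D2 (log2, SE 0.117, edgeR adjusted p 2.16e-10) and Fgf4, the autocrine FGF ligand, by 1.44 (SE 0.037, adjusted p 1.94e-15). Tet2, a 5-methylcytosine dioxygenase, also had the signs of Nr0b1: -0.52 in B6-13D2 against B6 (SE 0.043, adjusted p 8.21e-09) and 0.49 in D2-13B6 against D2 (SE 0.043, adjusted p 2.37e-08).

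Among the inputs of the network, 5 of 6 LIF pathway genes were called higher in D2 than in B6 and none lower. B6-13D2 had 2 higher and 4 lower than B6, and D2-13B6 had 4 lower than D2. Of 11 genes of the FGF and ERK pathway, D2 had 5 called higher and 2 lower than B6, B6-13D2 had 3 higher and 7 lower than B6, and D2-13B6 had 2 higher and 8 lower than D2. Spry4, a feedback inhibitor of that pathway, fell by 1.67 in B6-13D2 (log2, SE 0.111, edgeR adjusted p 4.37e-10) and by 1.68 in D2-13B6 (SE 0.089, adjusted p 3.3e-11), each against its background strain. Part of these lists had the signs of the fibroblast markers: 6 of the 7 markers were called higher in D2 than in B6 and lower in both congenic comparisons, and so were 4 of 6 LIF and 4 of 11 FGF and ERK genes, Spry4 among them, against 14.1% of all tested genes. The markers' part in these changes was not tested. Of 7 WNT pathway genes, 2 were called in D2 against B6, 1 in each direction, with Lef1 higher by 1.59 (SE 0.068, adjusted p 1.79e-12). B6-13D2 had 3 of the 7 higher and 2 lower than B6, and D2-13B6 had 4 higher and 2 lower than D2.

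Of 8 genes of exit from the naive state and of the primed state, D2 had 3 called higher and 1 lower than B6, B6-13D2 had 3 higher and 4 lower than B6, and D2-13B6 had 4 higher than D2. Of 16 tested paralogs of the members, 13 were called in D2 against B6 (9 higher, 4 lower). B6-13D2 had 7 higher and 6 lower than B6, and D2-13B6 had 3 in each direction against D2. Esrrg, an estrogen-related receptor like Esrrb, changed most of the called paralogs in these 3 comparisons, from 23 to 30 counts per D2 library to 5 to 8 per D2-13B6 library (log2 -2.415, SE 0.366, edgeR adjusted p 2.01e-05). It was 1 of 3 paralogs with the signs of the fibroblast markers in all 3 comparisons.

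Closeness of pattern was measured as the root mean square difference of log2 group means, each centred over the 4 groups, so it rests on 4 points. Within the members, Klf2 and Zfp42 were closest at 0.063, Klf4 and Tbx3 were 0.108 apart, and Tfcp2l1 and Tbx3 were farthest at 0.51. Among 9386 other protein-coding genes of at least 10 CPM, the gene nearest to each member was Zfp870 for Nanog (0.0088), Mex3a for Esrrb (0.0024), Ndufb7 for Klf2 (0.0069), Ercc6l2 for Klf4 (0.034) and Sec61a2 for Klf5 (0.011). It was Accsl for Tfcp2l1 (0.028), Nptx2 for Tbx3 (0.018), Pias4 for Zfp42 (0.019), Hells for Prdm14 (0.021) and Kdm5b for Nr0b1 (0.057). Nr0b1 had the most distant nearest gene of the members.

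Promoters were read as the 250 bases before the RefSeq start (GRCm38.p6) for the 7 members found there, with 9 windows. Each motif was searched on both strands. The octamer ATTTGCAT, bound by Oct4, was in the Zfp42 window and no other member's, and in 1.6% of 32851 windows of all genes. The KLF motif CACCC was in 6 of the 9 member windows (of Esrrb, Klf2, Nanog, Nr0b1 and Zfp42), against 52% of all windows, and the GC box GGGNGG, which can overlap it, was in all 9, against 64.5%. The letters TCAAGGTCA (ESRRB), TTCCNGGAA (STAT3) and CTTTGAT (TCF) were in none of the 9, and in 0.387%, 0.913% and 3.21% of all windows. A match is a description of letters only.

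The windows of Zfp42 (chr8:43307010-43307259, minus strand), Nanog (chr6:122707315-122707564, plus strand) and Nr0b1 (chrX:86191525-86191774, plus strand) are shown. Zfp42 is a member of the group highest in B6-13D2 with the exact octamer letters. Nanog is a member of that group without them, and Nr0b1 is the member that went with the segment. Only exact matches were searched, and the Nanog window holds the near match ttttgcat, so a site for Oct4 there was not excluded. Capitals mark the octamer and the KLF motif on either strand. The reference is C57BL/6J, and D2 alleles were not analysed here.
Nanog: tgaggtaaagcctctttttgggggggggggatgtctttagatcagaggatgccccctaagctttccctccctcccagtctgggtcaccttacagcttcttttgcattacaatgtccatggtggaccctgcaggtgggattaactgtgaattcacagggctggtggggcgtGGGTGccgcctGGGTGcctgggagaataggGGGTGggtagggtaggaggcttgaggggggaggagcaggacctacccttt
Zfp42: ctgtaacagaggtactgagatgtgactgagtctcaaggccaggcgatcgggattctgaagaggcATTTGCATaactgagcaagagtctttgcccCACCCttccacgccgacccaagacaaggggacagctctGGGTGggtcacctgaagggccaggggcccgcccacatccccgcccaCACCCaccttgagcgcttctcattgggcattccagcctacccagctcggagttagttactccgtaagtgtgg
Nr0b1: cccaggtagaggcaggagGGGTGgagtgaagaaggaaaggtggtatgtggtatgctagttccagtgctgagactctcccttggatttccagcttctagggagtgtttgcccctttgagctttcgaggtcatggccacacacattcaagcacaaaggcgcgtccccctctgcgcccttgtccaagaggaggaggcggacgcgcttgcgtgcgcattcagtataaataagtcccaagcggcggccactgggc

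The octamer of Zfp42 began 186 bases before its start, and its 3 KLF matches began 156, 118 and 72 bases before it. Nanog had 3 KLF matches in the window shown, at 80, 69 and 50 bases, and none in the window of its other RefSeq start, and Nr0b1 had 1, at 232 bases, inside a GC box. The KLF letters were thus in all 3 windows shown, and in 52% of all windows.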

How the data were processed

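The authors deposited expected counts (estimated, often fractional) from EMASE for each Ensembl gene, per the file headers. Of the values, 88.1% were whole within 1e-06, and 9 of 10 members were whole in all libraries (Nanog was at most 0.068 from whole). Bowtie 1.0.0, edgeR 3.34.1 and mm10 are named, per the submitters' processing notes, with no role. Symbols came from GENCODE M21, which held 42462 of the IDs. Rounded counts were fitted with edgeR 4.0.16 under R 4.3.3: filterByExpr with minimum count 10, TMM, quasi-likelihood fit of 4 group means over 12 libraries, 7 contrasts, Benjamini-Hochberg over 17148 genes, threshold 0.05. The standard error is the absolute log2 fold change over the square root of F. The fit was tested on simulated data. Members and lists were chosen with earlier results of these data known. Named genes were the members, both lists of other naive genes, at most 2 of the most changed called genes of other lists, the nearest pattern gene of each member and, outside that rule, all 7 fibroblast markers, named as a list. Alternatives were DESeq2 1.42.0, RLE factors, library totals, other filters, a fit on the compared libraries alone, a replicate block, and each library left out in turn. Replicate numbers, taken from titles, did not pair samples (mean correlation of deviations -0.011 over 18 pairs, -0.125 to 0.068).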

Additional observations from a re-analysis of the deposited data

Results flagged for a closer look

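For 9 of 10 members the effect of the D2 segment differed between backgrounds by edgeR's quasi-likelihood test, as it did for 64.5% of all tested genes. The effect on the B6 background minus that on the D2 background, on the log2 scale, was 0.59 for Nanog, 0.228 for Esrrb, 0.336 for Klf2, 0.624 for Klf5, 0.539 for Tfcp2l1, 0.559 for Zfp42 and 0.554 for Prdm14. It was -0.359 for Klf4 and -0.453 for Tbx3. Adjusted p-values from edgeR ranged from 3.21e-09 for Klf5 to 0.000326 for Esrrb. Algebraically it is congenic (both lines added) against parental (both strains added), so an effect that depends on the background cannot be told apart from anything the congenic libraries share. Groups of 3 are too small for a test of single outlying libraries.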

How the results depend on the processing

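Of 1320 member values under alternatives, for 70 results, 1265 kept their direction and side of the threshold, 7 lost the call, 19 gained it and 29 changed sign, all of the last in results not called before or after. The 7 lost calls all came from leaving out a library. The counts of members called moved by over 1.5 times when calls also had to reach a log2 size of 1: to 1 for D2 against B6, 2 for B6-13D2 against D2, 1 for B6-13D2 against D2-13B6, and 0 for B6-13D2 against B6, D2-13B6 against D2, D2-13B6 against B6 and congenic minus parental. The count of members called with the same sign for the segment on both backgrounds was then 0, and 3 with library totals. Leaving out each library gave 9 to 10 members for D2 against B6, 9 for B6-13D2 against B6, 8 for D2-13B6 against D2, 9 for B6-13D2 against D2, 6 to 7 for D2-13B6 against B6, 6 to 8 between the congenic lines, 9 to 10 for congenic minus parental, and 1 for the segment. With the replicate number as a block the counts were 9, 9, 8, 9, 7, 7 and 9, in the order of those comparisons, and 1 for the segment; the block changed no call.

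Signs changed in these values near 0. In D2-13B6 against B6, Nanog was 0.035 with DESeq2 and RLE factors, 0.087 with library totals and 0.046 when fitted on those groups alone. Klf2 there was 0.049 with DESeq2 and RLE factors, 0.10 with library totals, 0.013 with no filter, 0.0060 with a filter at mean CPM 1, 0.060 when fitted alone, and -0.0644 (without B6 replicate 3) to 0.020 (without B6 replicate 2) over left-out libraries. Prdm14 there was 0.022 with DESeq2 and RLE factors, 0.074 with library totals and 0.033 when fitted alone. In B6-13D2 against B6, Prdm14 was 0.017 with DESeq2, 0.018 with RLE factors and 0.031 with library totals. Between the congenic lines it was 0.013 with the filter at mean CPM 1, 0.026 when fitted alone, and -0.018 to 0.0099 over left-out libraries. Klf4 in D2-13B6 against D2 was -0.021 with the filter at mean CPM 1, and -0.0013 to 0.046 over left-out libraries. Tbx3 in B6-13D2 against D2 was -0.011 with that filter, -0.0014 when fitted alone, and -0.0032 to 0.016 over left-out libraries. The cause was not tested. Library totals moved the median of all genes by 0.11 in D2-13B6 against B6. Without B6 replicate 3, whose line name differs, no member's call in D2 or B6-13D2 against B6 changed. Leaving out that library did bring a call for Nr0b1 in congenic minus parental (edgeR adjusted p 0.0394). It also brought a call for Zfp42 between the congenic lines (edgeR adjusted p 0.0341). The lowest count of a member in a library was 520 (Prdm14 in D2); no fit at lower depth was run.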
